A study of Mus musculus with 16 samples.

Results

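The response of the neonatal mouse cochlea to the loss of Lgr5+ cells was measured in the same pools of tissue in 2 ways, in the RNA of the whole homogenate (input) and in the RNA bound to tagged ribosomes of GLAST-Cre+ cells (IP), and the question here was where these responses differed. All 16 libraries of the series entered, as 8 pools with 1 input and 1 IP library each. For each pool the log2 of CPM + 0.5 (CPM, reads of a gene per 1000000 reads on genes) in the input was subtracted from that in the IP, and the mean of this difference over the 4 DTR pools, less its mean over the 4 control pools, is called the interaction below. An interaction of 1 thus means that the log2 fold change (LFC, DTR less control) was larger by 1 in IP than in input. Of 50316 genes listed, 47729 had values. The test took the 16994 genes that reached 0.5 CPM in each of the 4 libraries of a treatment and fraction.

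Control mice carried GLAST CreERT/+ and Rpl22 HA/+, and DTR mice carried these alleles and Lgr5 DTR/+. In the RiboTag allele Rpl22 HA, Cre recombination puts an HA tag on a protein of the large ribosomal subunit, so that ribosomes of recombined cells and the mRNA on them can be precipitated. The tag follows GLAST-CreERT, which the study places in the greater epithelial ridge (GER) and inner phalangeal cells, and a cell that was recombined before damage keeps it afterwards. The study's methods give diphtheria toxin and tamoxifen at P1 to both genotypes, whereas the sample labels give no treatment for the controls. Cochleae without spiral ganglion, lateral wall and Reissner's membrane were taken at P4, and each pool joined the cochleae of several mice.

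The GER is a transient epithelium on the medial side of the organ of Corti, whose supporting cells surround and support the sensory hair cells. Diphtheria toxin kills cells that carry its receptor, here those that express Lgr5, by blocking their protein synthesis. Cells that enter division pass from DNA replication to G2 and mitosis, where cyclin B and Cdk1 drive the entry into mitosis. Immediate early genes are transcribed within minutes of a stimulus. Their mRNA is short-lived.

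Reads on genes ranged from 28089836 to 41966310 per library, so that 3 reads, taken as the limit of detection, equalled 0.0715 to 0.107 CPM, a limit that covers counting error only. Lgr5, whose locus carries the receptor, fell in both fractions. It measured 59.0 to 66.1 CPM in control input, 11.2 to 19.6 CPM in DTR input, 31.4 to 40 CPM in the IP of controls and 8.13 to 11.3 CPM in that of DTR pools, and its interaction was 0.07 ± 0.19 (SE, adjusted p = 0.97). Slc1a3, which encodes GLAST, was not enriched by the IP: its IP less input was -0.25 in control and -0.33 in DTR pools. 1 control pool (replicate 2) and 1 DTR pool (replicate 4) held almost no reads of 4 Y-linked genes, at most 0.362 CPM in sum, against 33.1 to 478 CPM in the libraries of the other 6 pools. Pools of different treatment but the same replicate number deviated together across genes (Pearson's r 0.133 to 0.315 in the 4 pairs of the same number), and pairs of different numbers had an r of -0.349 to -0.012 but for control pool 2 with DTR pool 1 (0.206). The fit with this number as a block is given where it changed the call of a gene named here. The pools numbered 4 in the labels carry another number in their file names. In bulk RNA, fewer cells of a type and less RNA per cell cannot be told apart.

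Damage changed 1713 genes upward (10.1%) and 1033 downward (6.08%) in IP, and 1299 upward (7.64%) and 780 downward (4.59%) in input. The interaction was called in 28 genes (0.165%), 9 with a more positive change in IP (0.053%) and 19 with a more negative one (0.112%). In controls the mean IP less input was below 0 for all 9 positive genes and above 0 for 14 of the 19 negative ones. For 19 of the 28 its size was smaller in DTR than in control pools. Whether a shared shift of IP less input toward 0 underlies these calls was not tested. The test was limma on the 8 pool differences, with Benjamini-Hochberg adjustment over all tested genes and calls at an adjusted p under 0.05. At an unadjusted p under 0.05, 866 genes (5.1%) had a more positive and 652 (3.84%) a more negative change in IP, while edgeR on the reads recovered from the CPM gave 608 and 941. The 28 interactions measured 0.69 to 2.11 in size, and in each of these genes the 4 DTR and the 4 control pool differences did not overlap, which held in 476 (2.8%) of all tested genes in the positive and 439 (2.58%) in the negative direction. The calls were made on these same differences, so the lack of overlap adds no separate support.

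**Figure D1:**
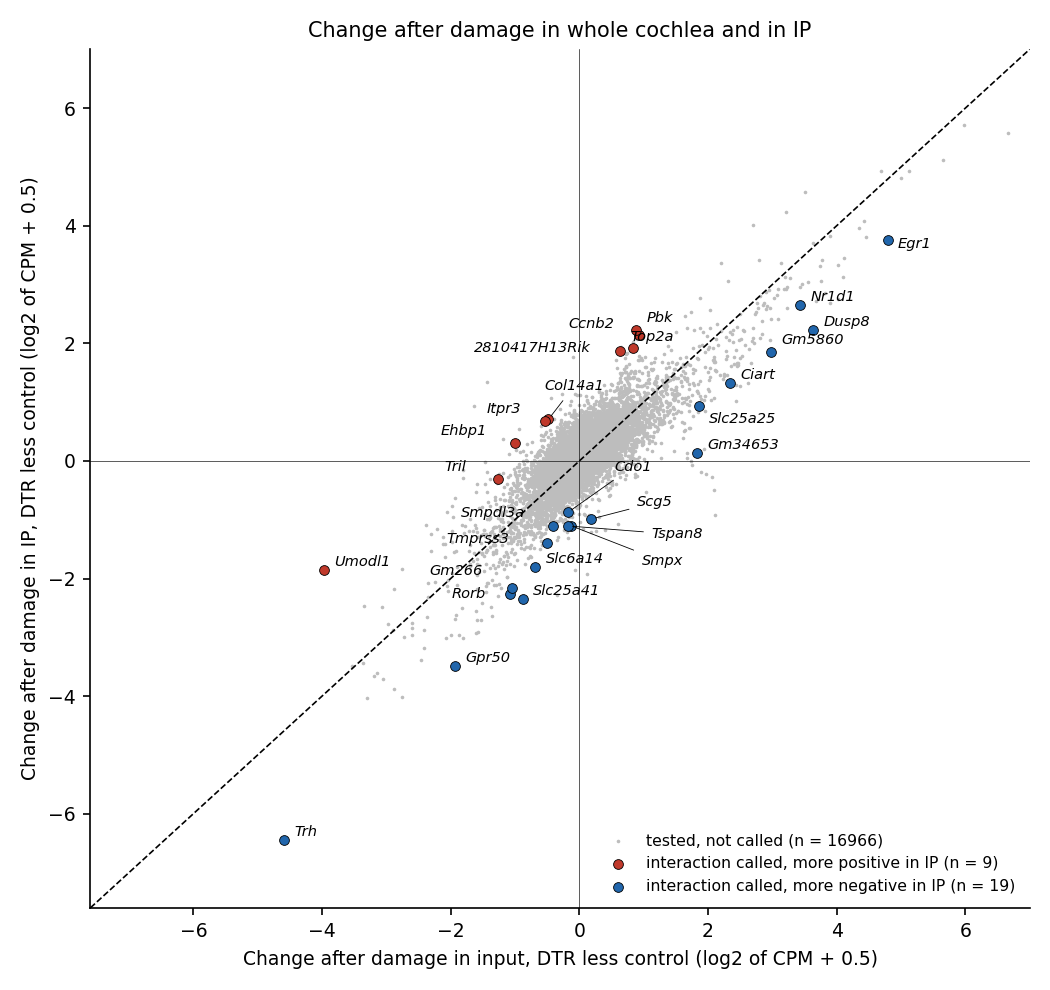
Change after damage (DTR less control, log2 of CPM + 0.5) in input on the x axis and in IP on the y axis for 16994 tested genes; the dashed line marks equal change. Grey points lie along the line, the 9 genes with a more positive change in IP (red) lie above it and the 19 with a more negative change (blue) below it.

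The count of 28 depended on the fit. A fit that blocked on the replicate number called 91 (45 more positive and 46 more negative, all 28 among them). edgeR called 11 (0.0647%) more positive and 21 (0.124%) more negative, and DESeq2 92 (0.541%) and 100 (0.588%). Of the 28, edgeR called 25 and DESeq2 26. With 1 pool left out, 3, 17, 2 and 21 genes were called without control pools 1 to 4, and 4, 2, 8 and 3 without DTR pools 1 to 4. Only Dusp8 and Trh were called in all 8 of these fits. For Trh, with 2 to 6 reads in each DTR library, the added 0.5 CPM sets the DTR differences. Neither edgeR nor DESeq2 called it. Ciart, Ehbp1, Cdo1, Tspan8, Smpdl3a, 2810417H13Rik, Gm5860 and Gm266 were called in none of the 8 fits. Rorb, Top2a, Tmprss3, Nr1d1, Gpr50, Scg5, Slc6a14 and Slc25a41 were called in 1 of them, and the other genes in 2 to 4. Without both pools that lacked Y-linked reads, a choice made after seeing the data, 3 genes were called.

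**Figure D2:**
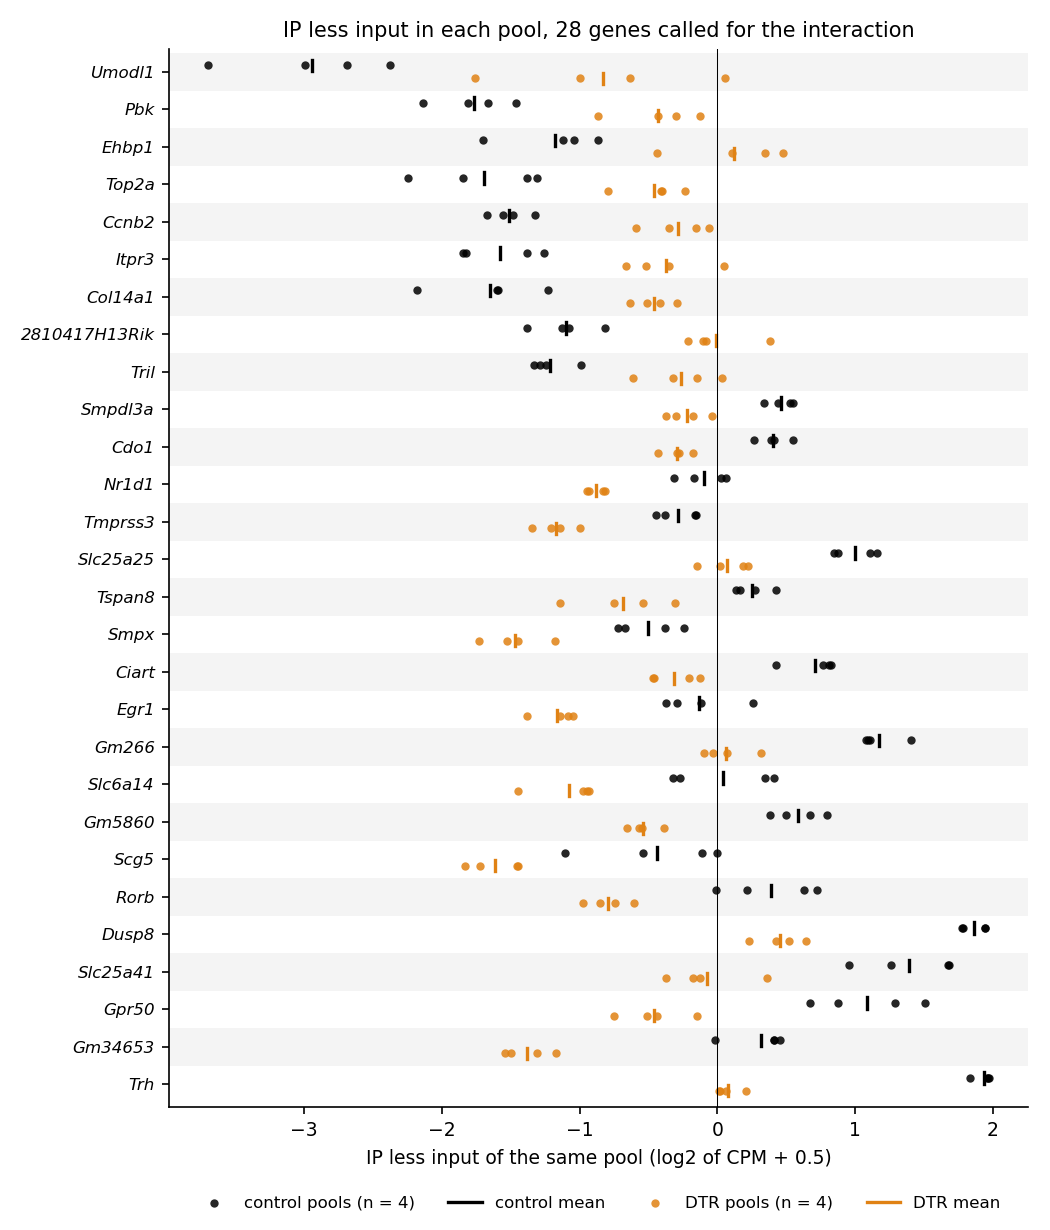
IP less input of the same pool (log2 of CPM + 0.5, x axis) for the 28 called genes, ordered by the interaction; black points are the 4 control pools, orange points the 4 DTR pools and short lines their means. In every row the black and orange points, on which the genes were called, are apart, from Umodl1 with an interaction of 2.11 to Trh with -1.86.

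Of the 9 genes with a positive interaction 4 serve cell division, and they were higher after damage by a larger fold in IP than in input. Ccnb2, which encodes the mitotic cyclin B2, measured 16.7, 10.8, 12.8 and 11.2 CPM in control input and 27.4, 25.2, 23.4 and 22.5 CPM in DTR input. In IP it measured 5.65, 4.02, 4.03 and 3.17 CPM in control and 24.5, 19.7, 15.4 and 21.6 CPM in DTR pools. IP held less Ccnb2 than input in each of the 8 pools, by a mean of -1.51 on the log2 scale in control and of -0.29 in DTR pools. The LFC was 0.93 ± 0.18 in input and 2.15 ± 0.18 in IP, and the interaction 1.22 ± 0.18 (SE, adjusted p = 0.0224).

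Top2a, the topoisomerase that untangles sister chromatids, held 10.7, 9.52, 6.23 and 3.50 CPM in the IP of control pools and 29.9, 28.4, 22.2 and 26.2 CPM in that of DTR pools. In input it measured 18.4 to 28.6 CPM in control and 33.6 to 39.8 CPM in DTR pools. It rose in IP (LFC 1.87, adjusted p = 1.96e-05), the LFC of 0.64 in input did not pass (adjusted p = 0.0974), and the interaction was 1.23 ± 0.22 (adjusted p = 0.0412). Pbk, a mitotic protein kinase, and 2810417H13Rik, also known as Pclaf, a partner of the replication clamp PCNA, showed the same order. In IP Pbk rose from 1.70 to 4.34 CPM in controls to 12.6 to 18.7 CPM after damage, with LFCs of 2.22 in IP and 0.88 in input. 2810417H13Rik, which overlaps Trip4 so that reads of both could be mixed, had LFCs of 1.92 in IP and 0.83 in input.

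In a list of 61 genes of G2 and mitosis, 48 rose in IP and 36 in input, and none fell in either. The median LFC was 1.36 in IP and 0.74 in input, and the median interaction 0.56, against 0.020 over all tested genes. Only Ccnb2 and Top2a were called for the interaction (with the block 7 genes, with DESeq2 16), but 35 of 61 (57.4%) reached an unadjusted p under 0.05 and all 35 were positive. The pool differences of 22 genes (36.1%) did not overlap, all in the positive direction. Over all tested genes these shares were 5.1% and 2.8% in that direction. The list's median stayed between 0.49 and 0.60 under the other scalings and count models. Its summed level was 1907 to 2206 CPM in control input, 2454 to 2599.8 in DTR input, 1862 to 1983 in control IP and 2465 to 2668 in DTR IP. The median IP less input of the list was -0.82 in control and -0.31 in DTR pools. The sum, to which abundant members add most, thus does not show the median gene.

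Among the members that were not called, Kif2c, a kinesin of mitotic centromeres, had an interaction of 1.196 (adjusted p = 0.0545, with the block 0.0333), and edgeR called it (adjusted p = 0.0377). Cdk1, the kinase partner of cyclin B, measured 5.36 to 8.43 CPM in the IP of controls and 21.1 to 25.7 CPM in that of DTR pools, with an interaction of 0.79 (adjusted p = 0.0751). Mki67, the gene of the proliferation marker Ki-67, differed from these in its control values, with a mean IP less input of 0.49 in controls against -1.22 for Cdk1. Its interaction of 0.70 ± 0.22 did not pass (adjusted p = 0.281). Genes of DNA replication and S phase moved less far apart, with a median interaction of 0.15 and 19 genes up in IP against 11 in input. At an unadjusted p under 0.05, 6 of 43 (14%, against 5.1% of all tested genes) were positive and 1 (2.33%, against 3.84%) negative. Of 70 listed histone genes 37 were tested, and of these 27 rose in IP and 23 in input. The filter also took genes that reached 0.5 CPM only after damage, such as Hist1h3b (1 to 2 reads in control input, 0 to 2 in control IP). For such genes a rise follows from the filter, so these counts cannot measure one for the list. At that level 6 interactions (16.2%) were positive and 5 (13.5%) negative, none called by limma and 4 by DESeq2.

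The sequences before the starts of Ccnb2 and Top2a, the pair of listed mitotic genes that was called, are shown because such genes are known to share promoter elements. Each line holds the 250 bases before the RefSeq start on the gene's strand (GRCm38.p6), at chr9:70421555-70421804 (minus strand) for Ccnb2 and chr11:99024190-99024439 (minus strand) for Top2a. Capitals mark the CCAAT box (CCAAT or ATTGG) and the cell cycle homology region core (TTTGAA or TTCAAA).
Ccnb2: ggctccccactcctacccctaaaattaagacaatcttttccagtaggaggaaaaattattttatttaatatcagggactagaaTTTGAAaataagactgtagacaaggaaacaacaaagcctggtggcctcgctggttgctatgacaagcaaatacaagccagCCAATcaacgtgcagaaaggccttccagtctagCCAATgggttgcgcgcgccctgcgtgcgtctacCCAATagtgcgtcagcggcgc
Top2a: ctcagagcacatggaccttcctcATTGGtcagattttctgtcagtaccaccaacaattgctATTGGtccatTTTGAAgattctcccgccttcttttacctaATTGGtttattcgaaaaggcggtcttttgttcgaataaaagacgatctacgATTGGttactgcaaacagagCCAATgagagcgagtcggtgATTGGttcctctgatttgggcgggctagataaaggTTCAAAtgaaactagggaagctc
Ccnb2 held 3 CCAAT boxes and 1 homology region core, Top2a 6 and 2. Of the 61 listed genes 52 had such a window, and 40 of them (76.9%) held a CCAAT box and 20 (38.5%) a homology region core, against 37.5% and 18.3% of all 27025 genes with a window. Of the genes called in the positive direction 7 had a window, with a CCAAT box in 3 (42.9%) and a core in 2 (28.6%). Of those called in the negative direction 15 had one, with a CCAAT box in 9 (60%) and a core in 2 (13.3%). The matches are letters in a window and were not tested as sites.

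**Figure D3:**
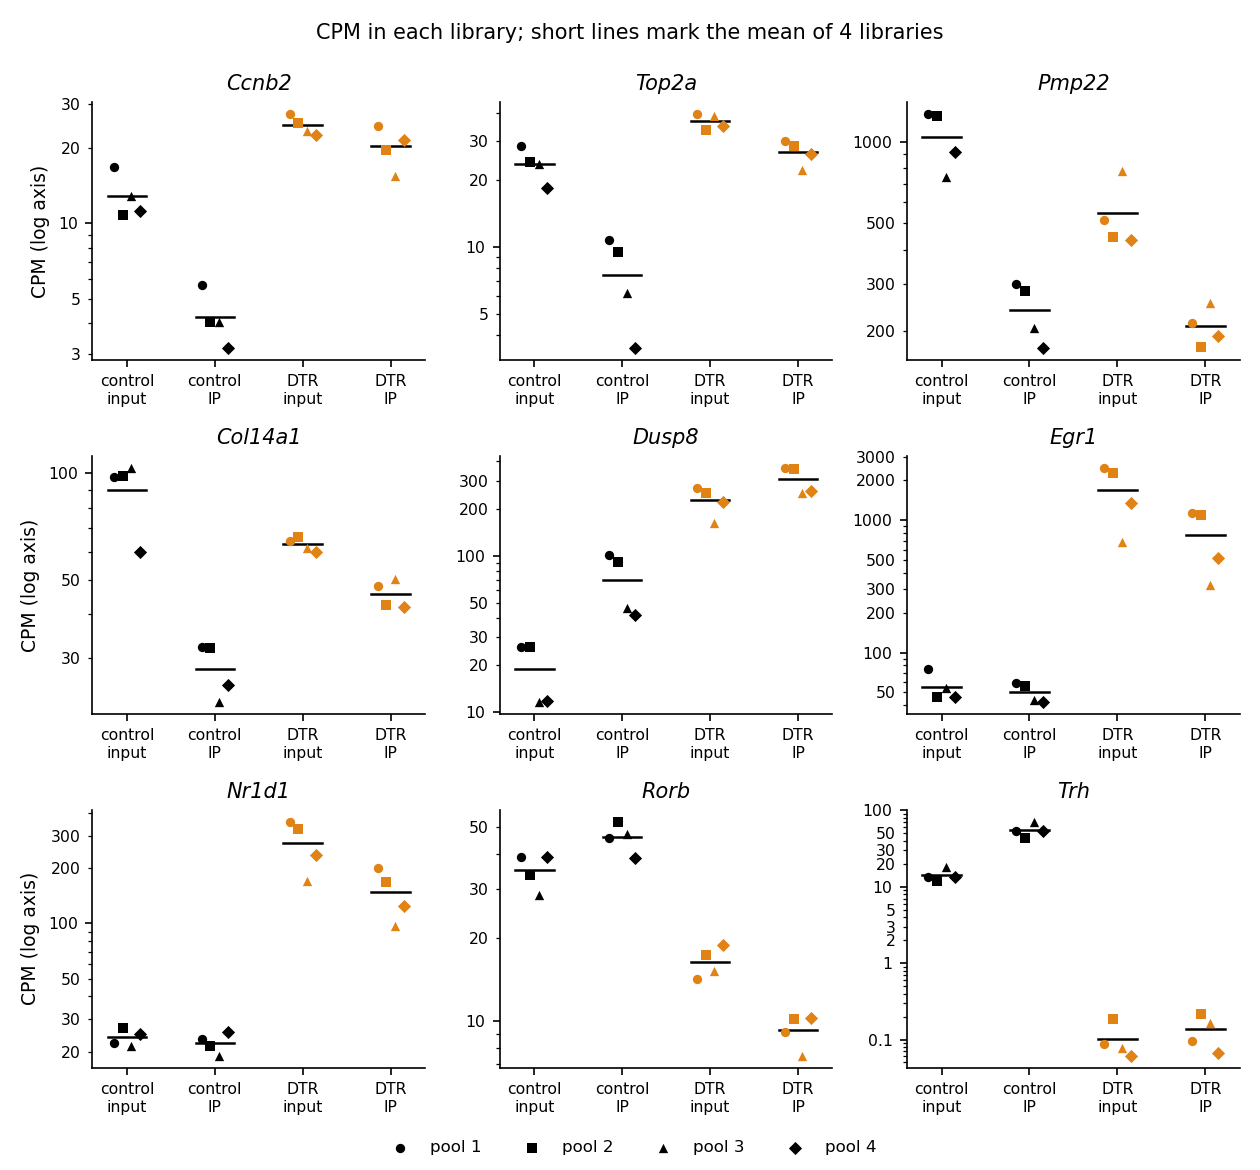
CPM (log axis) of 9 genes in each library, by group; symbols mark the pool number within a treatment and short lines the mean of 4 libraries. Ccnb2 and Top2a are lowest in control IP, Dusp8, Egr1 and Nr1d1 rise in both fractions, Rorb is lowest in DTR IP, and Trh lies near the detection limit in all DTR libraries.

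The other 5 genes with a positive interaction are of varied function. Col14a1, a fibril-associated collagen, measured 97.9, 98.5, 104 and 60.0 CPM in control input and 64.3, 66.2, 61.5 and 59.8 CPM in DTR input. In IP it measured 32.2, 32.1, 22.5 and 25.2 CPM in control and 48.1, 42.4, 50.2 and 41.9 CPM in DTR pools. The DTR libraries lay above all controls in IP, and in input they lay below 3 of 4 controls. It was the only called gene that passed in opposite directions, with LFCs of 0.71 in IP (adjusted p = 0.00378) and -0.48 in input (adjusted p = 0.0499), and an interaction of 1.19 ± 0.18. It overlaps 1700040F17Rik. The strand setting of the counting is not given in the sources used here, so reads of this and other overlapping genes named below may be mixed.

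Itpr3, an inositol trisphosphate receptor that releases calcium from the endoplasmic reticulum, rose in IP (10.8 to 18.1 CPM in control, 19.4 to 25.2 CPM in DTR) with no passing change in input (LFC -0.54, adjusted p = 0.0729). Tril, an accessory protein of Toll-like receptors, fell in input from 123 to 142 CPM to 47.5 to 72.6 CPM, while IP held 52.8 to 61.8 CPM in control and 38.0 to 50.8 CPM in DTR pools (LFC -0.31, adjusted p = 0.107). Ehbp1, which links endocytic vesicles to actin, fell in input (LFC -0.997) and had an LFC of 0.31 in IP that did not pass (adjusted p = 0.345). Itpr3 overlaps Itpr3os, and Tril overlaps Gm16499 and Gm43938. Umodl1, a uromodulin-like protein, fell in both fractions, from 35.9 to 57.7 CPM to 1.63 to 2.92 CPM in input and from 4.00 to 6.75 CPM to 0.45 to 1.72 CPM in IP. Its interaction of 2.11 ± 0.36 was the largest of those called, but neither edgeR (adjusted p = 0.0888) nor DESeq2 (adjusted p = 0.0686) called it.

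Of 14 listed Schwann cell and myelin genes 12 fell in input and 3 in IP, where 1 (Ncmap) rose, and the median LFC was -0.92 in input and -0.30 in IP. By limma none was called for the interaction, but all 14 interactions were positive (median 0.52, 0.44 to 0.49 under the other scalings and count models), 10 (71.4%) had an unadjusted p under 0.05, and the pool differences of 7 (50%) did not overlap. In the positive direction 5.1% and 2.8% of all tested genes did so. With the block 4 were called, with DESeq2 5, with quantile normalized CPM 2, with centred CPM 1 and with edgeR 0. Prx, which encodes the myelin protein periaxin, measured 345, 276, 240 and 231 CPM in control input and 128, 99.1, 126 and 123 CPM in DTR input. In IP, where it was at a lower level, it measured 18.4 to 42.6 CPM in control and 19.8 to 30.3 CPM in DTR pools, and the ranges overlapped. Its interaction was 0.98 ± 0.18 (adjusted p = 0.0536, with the block 0.0186). Pmp22, a membrane protein of compact myelin, had an interaction of 0.77 (adjusted p = 0.0634, with the block 0.0415), and Cnp, a myelin enzyme that overlaps Dnajc7, one of 0.65 (adjusted p = 0.0536, with the block 0.0245). The list's summed level was 3311 to 5417 CPM in control input, 1711 to 2538 in DTR input, 1087 to 1577 in control IP and 853 to 1112 in DTR IP. Neuron markers, although the spiral ganglion had been dissected away, summed to 713 to 1416 CPM in control input, 420 to 1194 in DTR input, 1142 to 1765 in control IP and 698 to 1118 in DTR IP. Their median IP less input was -0.47 in control and -0.48 in DTR pools, so the sums do not show the median marker. The part of neuron markers in these values was not tested.

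Of 41 collagen genes tested, 17 rose and 2 fell in IP, 3 rose and 4 fell in input, and the median LFC was 0.50 in IP and 0.06 in input. The median interaction was 0.45. At an unadjusted p under 0.05, 20 genes (48.8%, against 5.1% of all tested genes) were positive and 1 (Col13a1, 2.44%, against 3.84%) negative. Col14a1 was the only one called by limma, and DESeq2 called 4. Col6a3, a chain of collagen VI, measured 11.7 to 16.8 and 24.1 to 37.6 CPM in the IP of control and DTR pools, and 20.3 to 30.4 CPM and 24.1 to 33.5 CPM in input, so that the IP ranges were apart and the input ranges overlapped (interaction 0.90, adjusted p = 0.0921). The lists of mesenchyme markers (7 of 16 or 43.8% positive at that level, median 0.27) and of endothelium and pericyte markers (3 of 14 or 21.4%, median 0.31) had no called gene. Mesenchyme markers summed to 8179 to 8810 CPM in control input, 8219 to 9265 in DTR input, 5300.4 to 6571 in control IP and 6927 to 8384 in DTR IP. The endothelial sums were 527 to 627 and 610 to 751 CPM in input, and 191 to 257 and 280 to 322 CPM in IP, in control and DTR pools. Their part in the collagen values was not tested.

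**Figure D4:**
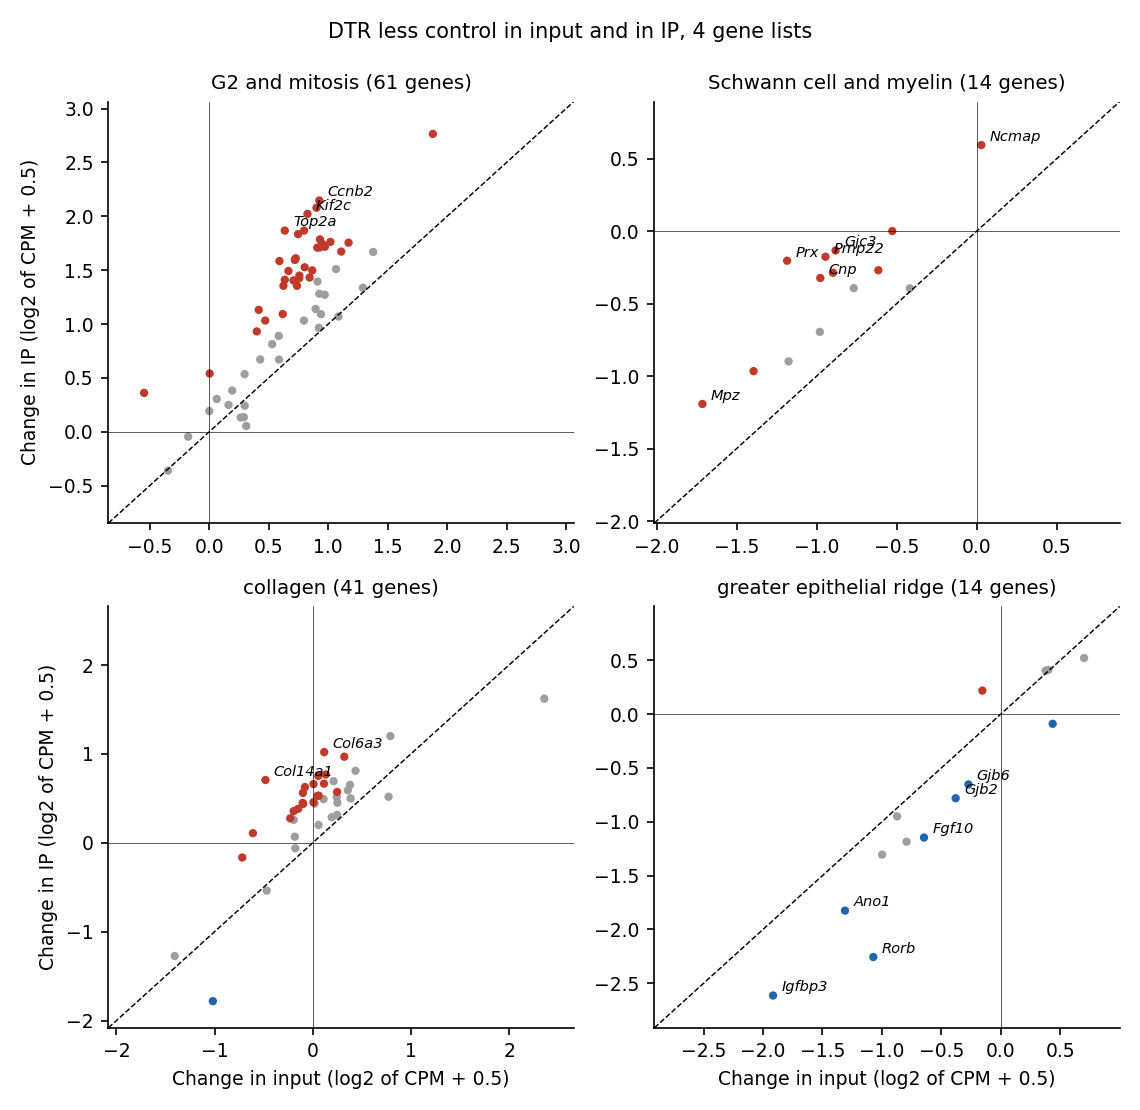
Change after damage (DTR less control, log2 of CPM + 0.5) in input (x axis) and IP (y axis) for the tested genes of 4 lists; red and blue points have an unadjusted interaction p under 0.05 in the positive and negative direction, and the dashed line marks equal change. Most mitotic genes lie above the line on the side of increase, most myelin genes above it on the side of decrease, 37 of 41 collagens above it, and 11 of 14 GER genes below it.

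Several genes that damage induced rose by a smaller fold in IP than in input. Dusp8, a phosphatase that acts on stress-activated MAP kinases, measured 25.8, 26.1, 11.5 and 11.8 CPM in control input and 101, 91.2, 45.9 and 41.6 CPM in control IP. In DTR pools it measured 271, 250, 161 and 220 CPM in input and 364, 359, 251 and 259 CPM in IP. The IP was higher than the input in each of the 8 pools, by 1.86 on the log2 scale in control and by 0.45 in DTR pools. The LFC was 3.63 ± 0.30 in input and 2.22 ± 0.30 in IP, and the interaction of -1.41 ± 0.13 had the lowest adjusted p of all genes (0.00047). Dusp8 overlaps Gm45377.

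Egr1, a zinc finger transcription factor and the classic immediate early gene, measured 75.7, 46.3, 53.7 and 45.8 CPM in control input and 58.4, 55.4, 43.7 and 42.2 CPM in control IP. In DTR pools it measured 2489, 2273, 687 and 1352 CPM in input and 1128, 1099, 324 and 518 CPM in IP. Every DTR pool held more Egr1 in input than in IP, while in controls 1 of 4 pools held more in IP. The LFC was 4.79 in input and 3.76 in IP (interaction -1.03 ± 0.15, adjusted p = 0.0224). Egr4, of the same family, rose from 0 to 4 reads to 458 to 2418 reads in input and from 0 to 8 reads to 351 to 2013 reads in IP. Its control values lie near the limit of detection, so the pseudocount sets its fold changes, and whether they differed between fractions could not be measured. For Atf3, a stress-induced transcription factor, the interaction was -0.17 ± 0.22.

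In the list of 28 immediate early genes 13 rose and 1 fell in input, and 11 rose and 2 fell in IP. At an unadjusted p under 0.05, 8 (28.6%, against 3.84% of all tested genes) had a negative interaction and none a positive one. The median interaction was -0.10 (-0.16 with edgeR). Junb, which overlaps Prdx2, had an interaction of -0.76 (adjusted p = 0.124), and Btg2, an antiproliferative factor, one of -0.77 (adjusted p = 0.0985, with the block 0.0245). Btg2 fell in IP (LFC -0.80) and had an LFC of -0.03 in input that did not pass. The list's summed level was 843 to 909 CPM in control input, 1874 to 4266 in DTR input, 1393 to 1646 in control IP and 2097 to 3219 in DTR IP.

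A pair of the called genes belongs to the circadian clock. Nr1d1, the nuclear receptor REV-ERBα, measured 22.3, 27.0, 21.4 and 24.9 CPM in control input, 23.4, 21.6, 19 and 25.5 CPM in the IP of controls, 359, 326, 171 and 237 CPM in DTR input and 201, 169, 97.0 and 124 CPM in DTR IP. DTR pools held more of it in input than in IP throughout. Its interaction was -0.78 ± 0.13 (adjusted p = 0.0377), and it overlaps Thra at its end. Ciart, a repressor of the clock that overlaps C920021L13Rik, rose from 5.50 to 6.99 CPM to 21.0 to 54.3 CPM in input and from 8.94 to 12.7 CPM to 18.1 to 39.2 CPM in IP (interaction -1.02 ± 0.17, adjusted p = 0.0377). In a list of 18 clock genes, chosen after these values were seen, 8 rose in each fraction and none fell. The only other member with an unadjusted p under 0.05 was Nr1d2 (interaction -0.54, adjusted p = 0.364). Dbp had an interaction of -0.28 and Per1 one of -0.28, with adjusted p of 0.674 and 0.741. The time of day at which cochleae were taken is not given in the sources used here, and its part in these values was not tested.

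Slc25a25, a mitochondrial ATP-magnesium and phosphate carrier that overlaps Naif1, measured 58.6 to 62.6 CPM in control input, 110 to 135 in control IP, 149 to 270 CPM in DTR input and 174 to 287 CPM in DTR IP (interaction -0.93 ± 0.13, adjusted p = 0.0224). Gm5860, a lincRNA, rose from 1.22 to 1.72 CPM to 8.92 to 22.2 CPM in input and from 1.93 to 2.90 CPM to 5.95 to 14.8 CPM in IP. Gm34653 rose in input from 0.453 to 0.931 CPM to 3.27 to 4.33 CPM, while its IP libraries held 24 to 50 reads after damage against 27 to 44 in controls. Its interaction of -1.70 was -1.04 with a pseudocount of 2 CPM and -2.27 with edgeR.

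The sequences before the starts of Dusp8 and Ciart were picked because of the motifs they hold. Dusp8 holds copies of the response element of CREB, and Ciart holds copies of the E-box of clock factors. The windows are the 250 bases before the RefSeq start (GRCm38.p6), at chr7:142095285-142095534 and chr3:95882229-95882478, both on the minus strand. Capitals mark TGACGTCA in Dusp8, CACGTG in Ciart, and CCAAT or ATTGG in both.
Dusp8: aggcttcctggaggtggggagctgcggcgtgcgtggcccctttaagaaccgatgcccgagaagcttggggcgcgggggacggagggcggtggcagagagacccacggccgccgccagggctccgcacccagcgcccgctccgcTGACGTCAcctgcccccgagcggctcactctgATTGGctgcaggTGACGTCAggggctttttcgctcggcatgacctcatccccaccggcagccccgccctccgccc
Ciart: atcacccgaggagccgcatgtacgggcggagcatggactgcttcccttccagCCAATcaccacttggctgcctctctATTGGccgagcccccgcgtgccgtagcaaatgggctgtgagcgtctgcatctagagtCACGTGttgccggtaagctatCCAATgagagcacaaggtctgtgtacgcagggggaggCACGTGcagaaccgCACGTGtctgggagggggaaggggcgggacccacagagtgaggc
Dusp8 held 2 copies of TGACGTCA and Ciart 3 of CACGTG. Of all 32851 windows of this length, 1.55% held TGACGTCA and 6.02% held CACGTG, both of which read the same on either strand. As both were picked for these copies, their matches cannot be weighed against those shares. Among the 15 genes called in the negative direction that had a window, 2 held TGACGTCA (13.3%) and 1 held CACGTG (6.67%), with Dusp8 and Ciart included. Of all 27025 genes with a window the shares were 1.77% and 6.86%. No binding was measured.

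The other 12 genes with a negative interaction fell after damage. Rorb, a retinoid-related orphan receptor found in the GER, measured 39.2, 33.7, 28.5 and 38.9 CPM in control input and 45.7, 52.4, 47.4 and 38.7 CPM in control IP. In DTR pools it measured 14.2, 17.4, 15.2 and 18.8 CPM in input and 9.13, 10.2, 7.49 and 10.2 CPM in IP. DTR pools held less of it in IP than in input, whereas 3 of 4 control pools held more in IP and the other nearly equal amounts. The LFC was -1.07 in input and -2.26 in IP (interaction -1.18 ± 0.18, adjusted p = 0.0311).

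Tmprss3, a serine protease whose loss causes deafness, fell from 93.1 to 129 CPM to 64.0 to 92.4 CPM in input and from 83.5 to 98.9 CPM to 28.8 to 41.3 CPM in IP, with no overlap between treatments in either fraction (interaction -0.89 ± 0.13, adjusted p = 0.0224). Slc6a14, an amino acid transporter, fell by an LFC of -0.69 in input and -1.80 in IP. Gm266 fell by -1.04 and -2.15, and Smpdl3a, a secreted phosphodiesterase, by -0.42 and -1.10, in the same order. Slc25a41, a mitochondrial carrier at 0.613 to 2.95 CPM in input, fell by -0.88 and -2.35, and edgeR did not call its interaction (adjusted p = 0.0621).

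In a further 4 genes the fall passed in IP but not in input. Smpx, a small protein of muscle and inner ear whose loss causes hearing loss, fell in IP from 33.3 to 50.7 CPM to 16.2 to 19.9 CPM and measured 45.5 to 61.9 CPM over all 8 input libraries. Cdo1, which oxidises cysteine, fell in IP from 206 to 254 CPM to 121 to 130 CPM and measured 146 to 190 CPM in input, where the groups overlapped. Tspan8, a tetraspanin, fell in IP from 87.3 to 109 CPM to 42.2 to 52.8 CPM, and Scg5, a chaperone of prohormone convertase, from 32.4 to 46.0 CPM to 14.8 to 25.8 CPM. Their LFCs in input were -0.13, -0.18, -0.17 and 0.19, in the order named, with the lowest adjusted p at 0.258. The interactions were -0.97 for Smpx, -0.70 for Cdo1, -0.94 for Tspan8 and -1.17 for Scg5.

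In the last pair of genes the DTR values were near the limit of detection. Trh, the precursor of thyrotropin-releasing hormone, had 418 to 742 reads in control input, 1489 to 2420 in control IP, and 2 to 6 in each DTR library of either fraction. It was thus lost in both fractions, and its interaction of -1.86 ± 0.20 rests on the control difference of 1.93 against a DTR difference that the pseudocount sets near 0. On the reads themselves edgeR gave an adjusted p of 0.208 and DESeq2 one of 0.161. Gpr50, an orphan receptor related to melatonin receptors, had 61 to 132 reads in control input, 140 to 213 in control IP, 3 to 17 in DTR input and 0 to 3 in DTR IP. Its interaction of -1.55 likewise depends on the pseudocount (-0.93 with 2 CPM and -4.19 with DESeq2), and edgeR called it (adjusted p = 0.0257).

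Of 14 listed GER markers, Rorb among them, 9 fell in IP and 6 in input, none rose, and the median LFC was -0.87 in IP and -0.51 in input. The median interaction was -0.39 (-0.45 to -0.36 under the other scalings and count models). At an unadjusted p under 0.05, 7 genes (50%, against 3.84% of all tested genes) were negative and 1 (7.14%, against 5.1%) positive. Rorb was the only one called by limma. Igfbp3, an IGF-binding protein, measured 1291 to 1462 and 167 to 257 CPM in the IP of control and DTR pools, and 523 to 656 CPM and 142 to 163 CPM in input (interaction -0.70, adjusted p = 0.079, with the block 0.0245). Fgf10, a growth factor of the GER, measured 87.0 to 146 and 34.3 to 76.7 CPM in the IP (interaction -0.50, adjusted p = 0.269). Igf2 did not follow, with an interaction of 0.03 ± 0.16 whose sign changed with the scaling. Of 17 macrophage markers 11 rose in input and 9 in IP, and none fell. They summed to 190 to 210 CPM in control input, 278 to 426 in DTR input, 40.6 to 59.7 in control IP and 73.6 to 121 in DTR IP. At an unadjusted p under 0.05, 2 interactions were positive (11.8%, against 5.1% of all tested genes) and 1 negative (5.88%, against 3.84%), with none called.

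Markers of organ of Corti supporting cells had interactions in both directions. Of 18, 13 fell in each fraction, and the median interaction was 0.11 (0.038 with edgeR and 0.062 with DESeq2). At an unadjusted p under 0.05, 4 interactions (22.2%) were positive and 4 (22.2%) negative, against 5.1% and 3.84% of all tested genes. Fabp7, a fatty acid-binding protein of inner phalangeal cells, fell in IP (LFC -1.42) with an LFC of -0.53 in input that did not pass (interaction -0.90, adjusted p = 0.0729, with the block 0.0142). Fgfr3, a growth factor receptor of pillar and Deiters' cells, fell more in input (LFC -3.34 against -2.47, interaction 0.87, adjusted p = 0.0862, with the block 0.034), and so did the neuropeptide gene Npy (LFC -2.76 against -1.83, interaction 0.92, adjusted p = 0.0536, with the block 0.0413). Lfng, a Notch-modifying glycosyltransferase, lay on the other side (LFC -3.30 in input and -4.03 in IP, interaction -0.74, adjusted p = 0.111). Of 29 hair cell markers 8 (27.6%) were positive and none negative at that level (median 0.19, with quantile normalized CPM 0.12), and none was called. Xirp2, an actin-binding protein of hair cells, had an interaction of 0.93 (adjusted p = 0.171).

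**Figure D5:**
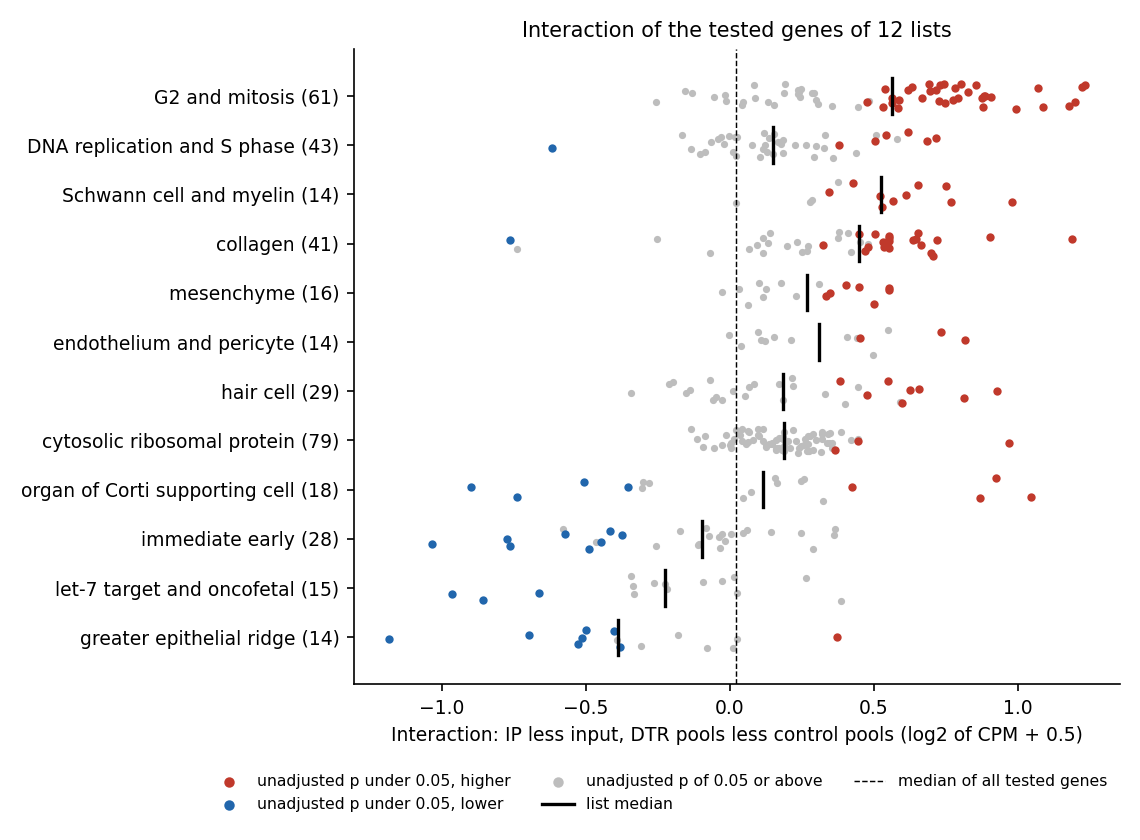
Interaction (log2 of CPM + 0.5, DTR pools less control pools of IP less input, x axis) of each tested gene of 12 lists, with the number of genes in parentheses; red and blue points have an unadjusted p under 0.05, thick lines are list medians and the dashed line is the median of all tested genes. The G2 and mitosis list has a median of 0.56, Schwann cell and myelin 0.52, collagen 0.45 and greater epithelial ridge -0.39, against 0.020 for all genes.

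The list that the IP enriched most was that of oncofetal genes. Its 15 let-7 targets and oncofetal genes had a median IP less input of 3.04 in control and 2.74 in DTR pools. At an unadjusted p under 0.05, 3 interactions were negative (20%, against 3.84% of all tested genes) and none positive (median -0.23). Igf2bp1, an mRNA-binding protein, measured 10.2 to 13.9 CPM in control input and 19.2 to 33.9 CPM in DTR input, and 76.8 to 116 CPM and 92.5 to 144 CPM in IP. It rose in input (LFC 1.13) and had an LFC of 0.17 in IP that did not pass, with an interaction of -0.97 ± 0.22 (adjusted p = 0.0985, with the block 0.0245). E2f5, an E2F transcription factor, had an interaction of -0.86 (adjusted p = 0.108, with the block 0.0318). Of 17 p53 targets 13 rose in input and 12 in IP. At that level 1 interaction was negative (5.88%, against 3.84% of all tested genes), that of the apoptosis gene Bbc3 (-0.77, adjusted p = 0.079, with the block 0.0379 and with edgeR 0.0294). Among 36 genes of actin and nonmuscle myosin 7 were positive (19.4%, against 5.1% of all tested genes) and 2 negative (5.56%, near the 3.84% of all). The myosin heavy chains Myh9 (0.82, adjusted p = 0.159) and Myh10 (0.67, adjusted p = 0.122) rose in IP with no passing change in input. For Myo9b (0.54) no change passed in either. DESeq2 called the interactions of Myh9 (adjusted p = 0.0306) and Myh10 (adjusted p = 0.031).

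The other lists had no gene called for the interaction by limma on the pool differences. With the block, Nefm, a neurofilament gene of the neuron list, was called (interaction 0.74, adjusted p = 0.0828, with the block 0.0455), and so was 1 mitochondrially encoded mRNA. DESeq2 called 3 neuron genes and 1 Notch pathway gene. Cytosolic ribosomal protein genes lay slightly above 0 (72 of 79 positive, median 0.19, with edgeR 0.12, 3 at an unadjusted p under 0.05), among them Rpl22, which carries the tag, at 0.16 ± 0.16. Mitochondrially encoded mRNAs had a median of -0.97 with limma, -0.52 with edgeR and -0.30 with DESeq2, and 2 of 13 were negative at that level. At the same level 5.1% of all tested genes were positive and 3.84% negative. Neuron markers had 4 positive of 16 (25%), nuclear long noncoding RNAs 1 of 8 (12.5%) and heat shock chaperones 1 of 12 (8.33%). Sterol synthesis genes had 2 of 21 (9.52%) and genes of the integrated stress and unfolded protein responses 1 of 20 (5%). None was negative in these 5 lists, which are too short for that to set them apart from all genes. Interferon-stimulated genes had 2 negative of 22 and none positive. Notch pathway genes had 2 of 20 (10%) in each direction and Wnt targets and receptors 1 of 17 (5.88%) in each, the latter near the shares of all tested genes. Nuclear oxidative phosphorylation genes had 0 of 69, the 5 erythroid genes tested 0, and Xist, the only sex-linked gene of its list that was tested, had an interaction of -0.52 (adjusted p = 0.764). None of the last 3 lists reached a call with edgeR or DESeq2.

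Over all tested genes, the mean IP less input of the control pools correlated with that of the DTR pools across 16994 genes, which are not independent replicates (Pearson's r 0.900), and its SD across genes in a pool was 0.725 ± 0.038 in control and 0.700 ± 0.051 in DTR pools (SD, n = 4 each, exact permutation test, two-sided p = 0.486, smallest possible p 0.0286). The 3387 genes with the most annotated exon bases had a median interaction of 0.092, and the 4 bins of shorter genes medians between -0.016 and 0.027.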

How the data were processed

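The authors made SMART-Seq v4 libraries of input and anti-HA IP RNA from 1 homogenate a pool, and for each library they deposited gene-level CPM. The study's methods name HISAT2 and HTSeq on GRCm38, the labels name TopHat, and the strand setting is not given in the sources used here. Values above 0 were whole multiples of the value of 1 read (tolerance 0.01 reads) for at least 99.996% of genes, so reads were recovered for edgeR 4.0.16 and DESeq2 1.42.0. The main test was limma 3.58.1 in R 4.3.3, on log2(CPM + 0.5) with the trend of variance on mean, and fold changes on this scale understate those of low genes. The change in each fraction was fitted on the means of 4 groups. Gene positions and overlaps came from GENCODE M21 (16933 of the tested genes), promoters from RefSeq (GRCm38.p6). The GC content named in the design was not used, since no genome sequence was given. On a single simulated data set with 200 changed genes, limma made more false calls than its threshold allows (16 of 147) and edgeR fewer (3 of 129). Both missed most interactions of the smaller size, with 33% recovered by limma and 30% by edgeR. The simulated libraries were drawn independently, without the deviations that IP and input of a pool share. These rates therefore need not hold for the paired test.

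The members and gene lists (cell types, cell cycle, stress, matrix, signalling, mitochondria, ribosomes, histones) were chosen with earlier results of these data known. By rule the text named up to 3 called genes of each pattern of change in the fractions (largest interaction, at least 5 CPM, no overlap, no gene model name), the 3 genes with the lowest p of each list, and genes that the study or its mouse lines name. The other called genes, Nr1d2, Dbp, Per1, Ncmap and Col13a1 were named after their values were seen. Replicates are pools of animals, and p-values of the interaction measure the spread between pools. For the change in each fraction, the spread was estimated from all 16 libraries together, with no term for the pool. IP and input of a pool deviated together, with Pearson's r of 0.294 to 0.490 across genes. With the libraries of each fraction alone, 1883 genes changed in IP and 2391 in input. The pool pairs IP with input, by the shared homogenate, and pools of one number across treatments correlated by over 0.1 in each of 4 pairs. Alternatives were quantile normalized and median-centred CPM, pseudocounts of 0.1 and 2, no filter, at least 2 CPM, fits with and without the blocks, no trend, edgeR, DESeq2, libraries of 1 fraction alone and each pool left out, and, chosen after seeing the data, the pools without Y-linked reads left out.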

Additional observations from a re-analysis of the deposited data

Results flagged for a closer look

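By the test of the difference itself, the change after damage was called as different between IP and input in 28 genes. Neither edgeR nor DESeq2 called Trh or Umodl1, edgeR did not call Slc25a41, and the values for Trh and Gpr50 depend on the pseudocount. The interaction was positive for Umodl1 (2.11), Pbk (1.34), Ehbp1 (1.30), Top2a (1.23), Ccnb2 (1.22), Itpr3 (1.21), Col14a1 (1.19), 2810417H13Rik (1.09) and Tril (0.95). It was negative for Trh (-1.86), Gm34653 (-1.70), Gpr50 (-1.55), Slc25a41 (-1.47), Dusp8 (-1.41), Rorb (-1.18), Scg5 (-1.17), Gm5860 (-1.13), Slc6a14 (-1.12), Gm266 (-1.11), Egr1 (-1.03), Ciart (-1.02), Smpx (-0.97), Tspan8 (-0.94), Slc25a25 (-0.93), Tmprss3 (-0.89), Nr1d1 (-0.78), Cdo1 (-0.70) and Smpdl3a (-0.69).

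In 18 of 228 groups of 4 pools (114 named genes in 2 treatments), 1 pool lay far from the other 3 in its IP less input, by Dixon's test, where chance gives about 11.4. Of the control pools, number 2 stood apart for Trh (1.84) and Cox6c (-0.51), and number 3 for Ciart (0.42), Col1a2 (-0.99) and Col3a1 (-1.93). Number 4 stood apart for Gm34653 (-0.016), Gm266 (1.41), Cdk1 (-1.36), Cx3cr1 (-1.55), Trim71 (2.76) and Hbb-bt (-3.42). Of the DTR pools, number 2 stood apart for Tie1 (-1.49) and Rtp4 (-0.15), and number 3 for Slc6a14 (-1.45), Igfbp3 (0.18), Lfng (0.84), Junb (0.75) and Znrf3 (1.28). DTR pool 3 was also the lowest of its group for Egr1, Nr1d1 and Ciart in both fractions. The part of single pools in these values was not tested.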

How the results depend on the processing

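The 28 called genes kept the sign of their interaction under all 20 alternatives; 278 of these values passed the threshold and 282 did not. The count of 28 (9 positive, 19 negative) became 48 (19, 29) with CPM centred on the library median, 60 (23, 37) with a pseudocount of 2, 1 (0, 1) with no filter, 1 (0, 1) with no replicate block (group means without the pairing of IP and input), 91 (45, 46) with the replicate block, 192 (92, 100) with DESeq2, 10 (1, 9) without the trend, and 3 (1, 2) without both pools that lacked Y-linked reads. With no filter 2358 and with no replicate block 859 genes had an unadjusted p under 0.05, against 1518. The positive count alone became 15 with quantile normalized CPM and 15 with at least 2 CPM. With 1 pool left out the counts ranged from 2 to 21, from 0 to 9 positive and from 2 to 14 negative. The causes were not tested.

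The counts of genes changed by damage ranged from 1883 to 3874 in IP and from 1516 to 2976 in input, within 1.5 times the counts of 2746 and 2079. Signs reversed in 4 named genes that were not called, apart from Rpl22 (-0.036 without the pools that lacked Y-linked reads). Igf2 gave -0.16 with quantile normalized CPM, -0.0047 centred, -0.039 with edgeR and -0.015 with DESeq2, and -0.057 to 0.138 with 1 pool left out. Pmaip1 gave 0.17 with a pseudocount of 0.1, 1.11 with edgeR and 1.23 with DESeq2. Hist1h3b gave 0.19 and 0.32 with edgeR and DESeq2. Lgr5 gave -0.017 with edgeR and -0.090 to 0.198 with 1 pool left out, reversed without control pool 4 or DTR pool 2. Depth limits genes with few reads, such as Trh and Gpr50.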
